A study of Mus musculus with 4 samples.

Results

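The 78 protein-coding genes of the mouse whose symbols begin with Mrpl or Mrps and a number, the genes of the mitochondrial ribosomal proteins, were examined for Runx3 binding in CD8 T cells. They were chosen by symbol alone from the 21887 protein-coding genes that RefSeq places on chromosomes 1 to 19, X and Y of GRCm38.p6 (mm10), and comprise 49 Mrpl and 29 Mrps genes. Runx3 was mapped by ChIP and by CUT&RUN, with 1 library of each, in CD8 T cells that had been taken from the spleens of adult wild type mice with magnetic beads against CD8a. The labels name no strain. ChIP used 50000000 frozen cells pooled from 5 mice, and CUT&RUN used 150000 fresh cells from 1 mouse, both with a rabbit antiserum against Runx3 at 1 in 200. A whole cell extract served as the control of the ChIP peak list, and a CUT&RUN library with normal rabbit serum was not analysed here. ChIP sequences sonicated fragments bound by an antibody, and CUT&RUN sequences fragments that a nuclease tethered to the antibody has cut loose around the bound protein.

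Mitochondrial ribosomes make the few proteins that the mitochondrial genome encodes, which are core subunits of the respiratory chain and of the ATP synthase. Their RNA comes from the mitochondrial genome, but their proteins are all encoded in the nucleus and imported, so the ribosome depends on many scattered nuclear genes with promoters of their own. T cells are known to expand their mitochondria when they are activated. The symbols Mrpl and Mrps stand for the large and the small subunit of the ribosome, although structures place the products of Mrps18a and Mrps30 in the large subunit, and the product of Mrps36 is now regarded as a part of the 2-oxoglutarate dehydrogenase complex. Runx3, a transcription factor with a RUNX DNA-binding domain, is required for CD8 T cells to form and to keep their identity.

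The ChIP list held 13166 peaks from 9532996 fragments, and the CUT&RUN list 15891 peaks from 14068364 fragments, after removal of duplicates. All 5 T cell markers examined (Cd3d, Cd3e, Cd3g, Cd8a and Cd8b1) had a summit of both lists within 10 kb. Peaks at these genes do not measure their expression. With 1 library per assay there was no replicate, so no difference below was tested, and values are given side by side. With the normal serum library not analysed here, how much signal gathers at gene starts without the Runx3 antibody was not tested.

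Promoter sequences are shown for 10 of the genes, to show the letters at starts with and without a peak. They are RefSeq sequences of GRCm38.p6 on the strand of the gene, from 250 bases before the annotated start to 30 bases after it, read 5′ to 3′. Capitals mark every match to a RUNX core (TGTGGT), an ETS site (CCGGAAG), a YY1 site (AAGATGGC) or the palindromic NRF1 site on either strand. The first 4 belong to the genes with a promoter entry whose best peaks within 1 kb of a gene end had the lowest rank percentile, averaged over both lists, and the single marked motif in these 4 stretches is a YY1 match in Mrpl49.
Mrps18b: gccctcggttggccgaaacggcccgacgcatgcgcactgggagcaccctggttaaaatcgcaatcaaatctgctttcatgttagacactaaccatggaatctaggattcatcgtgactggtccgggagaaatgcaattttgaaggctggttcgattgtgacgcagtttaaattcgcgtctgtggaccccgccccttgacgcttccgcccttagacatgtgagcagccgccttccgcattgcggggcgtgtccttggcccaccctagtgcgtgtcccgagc
Mrpl48: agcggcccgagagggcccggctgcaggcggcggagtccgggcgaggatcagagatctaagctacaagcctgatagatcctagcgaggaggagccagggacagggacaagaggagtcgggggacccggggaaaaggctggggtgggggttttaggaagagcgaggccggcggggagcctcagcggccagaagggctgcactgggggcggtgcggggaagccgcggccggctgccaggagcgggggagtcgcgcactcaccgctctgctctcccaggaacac
Mrpl49: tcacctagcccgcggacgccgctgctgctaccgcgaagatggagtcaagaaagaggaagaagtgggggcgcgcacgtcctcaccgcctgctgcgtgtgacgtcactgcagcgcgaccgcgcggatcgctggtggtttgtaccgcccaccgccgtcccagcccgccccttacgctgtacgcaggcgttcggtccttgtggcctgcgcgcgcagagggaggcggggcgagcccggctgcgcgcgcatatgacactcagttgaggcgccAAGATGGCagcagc
Mrpl41: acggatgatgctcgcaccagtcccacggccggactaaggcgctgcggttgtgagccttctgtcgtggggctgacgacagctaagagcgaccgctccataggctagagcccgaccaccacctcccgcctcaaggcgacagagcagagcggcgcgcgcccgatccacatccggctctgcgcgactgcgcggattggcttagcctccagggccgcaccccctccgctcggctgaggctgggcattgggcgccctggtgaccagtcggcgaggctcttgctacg
Mrps18b, Mrpl48, Mrpl49 and Mrpl41 lie at chr17:35916411-35916690, chr7:100608272-100608551, chr19:6057726-6058005 and chr2:24975069-24975348, all on the minus strand. The printed stretch holds the best summits of both lists at Mrpl49 and the best CUT&RUN summit at Mrpl41. It does not hold the best ChIP summit of Mrpl41, nor the best summits of Mrps18b and Mrpl48. The next 4 were picked after their values were seen. Mrps18a (chr17:46110754-46111033, plus strand) and Mrps27 (chr13:99344536-99344815, plus strand) are the 2 genes with summits of both lists and with an ETS and a YY1 match in the window. Mrps30 (chr13:118387223-118387502, minus strand) has, among windows with both summits, the RUNX match that lies nearest to them. Mrpl18 (chr17:12916062-12916341, minus strand) has strong summits at an annotated start that is not an end of the gene.
Mrps18a: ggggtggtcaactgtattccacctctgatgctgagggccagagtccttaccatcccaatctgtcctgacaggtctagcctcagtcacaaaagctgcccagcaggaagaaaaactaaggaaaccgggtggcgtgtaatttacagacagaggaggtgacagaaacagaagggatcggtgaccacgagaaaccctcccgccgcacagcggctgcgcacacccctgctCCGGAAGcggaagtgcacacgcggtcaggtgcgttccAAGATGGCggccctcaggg
Mrps27: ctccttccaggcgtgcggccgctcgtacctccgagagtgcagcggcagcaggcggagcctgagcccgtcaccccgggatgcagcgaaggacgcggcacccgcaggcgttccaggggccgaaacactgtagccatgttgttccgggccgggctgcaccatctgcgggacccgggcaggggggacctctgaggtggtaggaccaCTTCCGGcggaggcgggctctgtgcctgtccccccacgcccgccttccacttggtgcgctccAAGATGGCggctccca
Mrps30: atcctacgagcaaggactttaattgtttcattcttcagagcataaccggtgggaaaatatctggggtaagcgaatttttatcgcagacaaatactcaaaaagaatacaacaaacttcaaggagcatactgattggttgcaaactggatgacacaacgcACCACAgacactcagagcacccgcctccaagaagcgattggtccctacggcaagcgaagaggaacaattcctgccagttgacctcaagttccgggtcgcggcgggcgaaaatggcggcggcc
Mrpl18: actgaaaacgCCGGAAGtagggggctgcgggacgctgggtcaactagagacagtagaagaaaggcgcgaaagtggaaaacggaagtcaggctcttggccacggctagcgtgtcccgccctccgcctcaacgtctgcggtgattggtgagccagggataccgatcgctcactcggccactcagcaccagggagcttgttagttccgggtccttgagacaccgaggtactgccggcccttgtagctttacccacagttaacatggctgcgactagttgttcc
The last 2 are the first Mrpl and the first Mrps gene by symbol that have a promoter entry and no summit of either list at an end, Mrpl12 (chr11:120484387-120484666, plus strand) and Mrps10 (chr17:47368947-47369226, plus strand). Neither has a marked motif.
Mrpl12: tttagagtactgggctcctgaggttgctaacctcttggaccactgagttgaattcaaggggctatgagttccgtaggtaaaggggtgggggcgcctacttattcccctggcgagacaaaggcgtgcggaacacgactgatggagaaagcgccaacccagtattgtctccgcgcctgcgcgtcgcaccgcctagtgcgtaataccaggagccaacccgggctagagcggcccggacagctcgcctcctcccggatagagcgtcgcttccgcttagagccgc
Mrps10: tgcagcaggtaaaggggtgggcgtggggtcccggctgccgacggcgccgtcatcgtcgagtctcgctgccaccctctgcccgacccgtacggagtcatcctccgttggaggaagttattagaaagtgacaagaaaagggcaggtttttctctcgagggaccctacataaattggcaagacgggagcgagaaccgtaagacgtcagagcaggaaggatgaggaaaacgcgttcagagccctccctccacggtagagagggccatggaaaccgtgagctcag

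Runx3 peaks were frequent at the ends of these genes. A summit, the highest point of a peak, lay within 1 kb of either end of the gene at 47 of 78 genes in ChIP (60.3%) and at 38 of 78 in CUT&RUN (48.7%). Among all protein-coding genes the shares were 23% in ChIP and 27.2% in CUT&RUN. Both lists had a summit at an end of 33 of the 78 genes (42.3%, against 18.3% of all protein-coding genes), and 52 had one in at least 1 list (66.7%, against 31.8%). ChIP alone had a summit at 14 genes (17.9%, against 4.65%) and CUT&RUN alone at 5 (6.41%, against 8.87%). The lists were called at unlike thresholds, q of 0.05 in ChIP and 1e-05 in CUT&RUN. As deposited, ChIP marked more of these genes than CUT&RUN, but at q of 1e-05 or less ChIP marked 31 against 38.

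**Figure D1:**
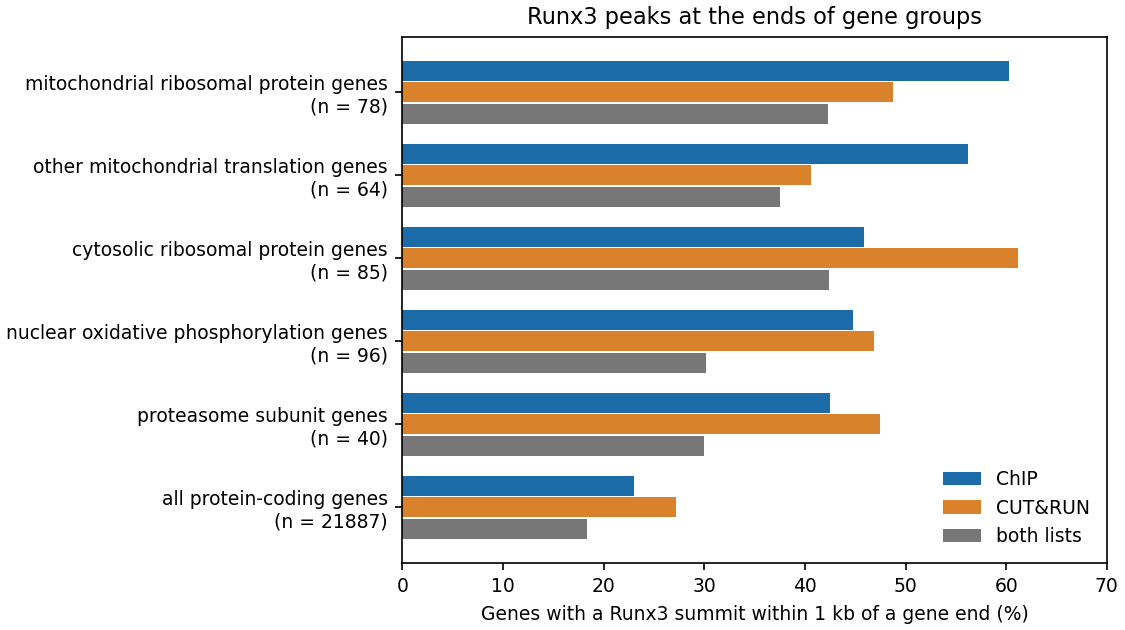
Bars give the share of genes (x axis, in %) with a Runx3 summit within 1 kb of a gene end in the ChIP list, in the CUT&RUN list and in both, for the groups named on the y axis. The mitochondrial ribosomal protein genes reach 60.3% in ChIP and 48.7% in CUT&RUN, against 23% and 27.2% of all protein-coding genes.

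Within the gene and 10 kb on either side, 55 genes had a ChIP summit (70.5%, against 40.2% of all protein-coding genes), 53 had a CUT&RUN summit (67.9%, against 45.1%) and 44 had both (56.4%, against 34.9%). No summit of either list lay in this span at 14 genes (17.9%, against 49.5%). A summit there but none at an end was found at 8 genes in ChIP (10.3%, against 17.3%) and at 15 in CUT&RUN (19.2%, against 17.9%). The genes are short, with a median span of 7690.5 bp against 17169 bp over all protein-coding genes. With the span alone and no margin, 23 genes had a ChIP summit (29.5%, against 22.4%) and 15 a CUT&RUN summit (19.2%, against 24.1%), so there the CUT&RUN share fell below that of all genes.

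Mrpl genes had a summit at an end more often than Mrps genes in these lists. In ChIP the counts were 33 of 49 Mrpl genes (67.3%) and 14 of 29 Mrps genes (48.3%), and in CUT&RUN 26 of 49 (53.1%) and 12 of 29 (41.4%). Both shares of the Mrps genes were still above those of all protein-coding genes. Whether the Mrpl and Mrps genes differ was not tested.

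The peaks at these genes were of ordinary height. For the best ranked peak at an end of each gene, the pileup, the number of fragments over the summit, ran from 7 to 33 in ChIP with a median of 12, the same as the median of 12 over the 5024 protein-coding genes with such a peak. In CUT&RUN it ran from 11 to 98 with a median of 25, again equal to the median of 25 over 5947 protein-coding genes. The top 10% of the ChIP list held the best peak of 3 of 47 genes (6.38%, against 9.22% of all protein-coding genes with a peak at an end), and the top 10% of the CUT&RUN list that of 2 of 38 (5.26%, against 7.06%). Median widths were 333 bp in ChIP (300 bp over all such genes) and 162 bp in CUT&RUN (173 bp). The group differed from other genes in how often a peak was called, and little in how high the called peaks were.

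Mrps18b, which encodes 1 of the several mitochondrial relatives of a single bacterial small-subunit protein, had the lowest mean rank percentile over both lists among peaks within 1 kb of a gene end. In ChIP its best peak ranked 1037 of 13166, with 26 fragments (95% Poisson interval 17.0 to 38.1) at the summit, position 35916757 of chromosome 17. This summit lay 317 bp outside the gene on the side of the start, and nearer to an end of another gene. Ppp1r10, which is read away from Mrps18b, starts 756 bp from the start of Mrps18b. The best CUT&RUN summit of Mrps18b lay at the other end, at 35910261, with a pileup of 98 (79.6 to 119) and rank 503 of 15891. Each list also had a weaker summit at the end where the other was strong: ChIP had 10 fragments (4.80 to 18.4) at 35910275, and CUT&RUN had 22 (13.8 to 33.3) at 35916877 and 18 (10.7 to 28.4) at 35916441. Both ends of Mrps18b therefore carried peaks of both lists, in opposite order of height. The intervals cover counting error only, and any PCR copies left after removal of duplicates are not independent molecules. That removal took the fragments from 48285251 to 9532996 in ChIP and from 17896991 to 14068364 in CUT&RUN.

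Mrpl48, a large-subunit gene, held the best ranked ChIP peak at an end of the 78 genes, with a pileup of 33 (22.7 to 46.3) at chromosome 7, 100607322 and rank 506. Its CUT&RUN summit lay 6 bp away and had a pileup of 62 (47.5 to 79.5). Both summits were close to the limit of the window, at 979 and 973 bp inside the gene end, and downstream of the nearest of its 4 annotated starts. Both were also nearer to an end of another gene, and an end of Rab6a lies 726 bp from an end of Mrpl48. At Mrpl49 the summits held 31 fragments in ChIP (21.1 to 44.0) and 60 in CUT&RUN (45.8 to 77.2), 121 and 130 bp before the start. These 2 summits were nearer to an end of another gene as well. The start of Mrpl49 lies 192 bp from that of Fau, a gene of a ribosomal protein of the cytosol, which is read in the other direction.

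Mrpl41 had 2 peaks of each list upstream of its start. The ChIP pileups were 23 (14.6 to 34.5) at 934 bp before the start and 22 (13.8 to 33.3) at 228 bp. In CUT&RUN the nearer peak was the higher, with 81 fragments (64.3 to 101) at 95 bp against 46 (33.7 to 61.4) at 873 bp. The farther pair lies closer to the start of Pnpla7, a lysophospholipase gene that is read away from Mrpl41. Mrpl45, whose product lies at the exit of the ribosome's tunnel and helps to hold the ribosome at the inner membrane, had pileups of 22 (13.8 to 33.3) in ChIP and 58 (44.0 to 75) in CUT&RUN, 75 and 46 bp before its annotated start.

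Mrpl17, the relative of a bacterial large-subunit protein, had 21 fragments in ChIP (13.0 to 32.1) and 49 in CUT&RUN (36.3 to 64.8). Mrpl9 and Mrpl43 each had 15 in ChIP (8.40 to 24.7), with 44 (32.0 to 59.1) and 43 (31.1 to 57.9) in CUT&RUN. Mrpl54, Mrps6 and Mrpl32, whose product is trimmed by a protease of the inner membrane before it enters the ribosome, also had 15 fragments each in ChIP and 31, 31 and 28 in CUT&RUN. Mrps7, a gene of the head of the small subunit, had 19 (11.4 to 29.7) in ChIP and 24 (15.4 to 35.7) in CUT&RUN. From Mrpl17 to Mrpl32 all ChIP intervals overlap, while the CUT&RUN interval of Mrpl17 lies above that of Mrps7.

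Mrpl32, Mrpl40 and Mrpl51 also had 2 peaks of 1 list at an end. Mrpl32 had a second ChIP summit 225 bp after the start with 9 fragments (4.12 to 17.1), which overlapped no CUT&RUN peak. At Mrpl40 the ChIP summits lay 52 and 659 bp before the start with 13 (6.92 to 22.2) and 12 (6.20 to 21.0) fragments, and the CUT&RUN summit 66 bp after it with 33 (22.7 to 46.3). At Mrpl51 CUT&RUN had 54 fragments (40.6 to 70.5) at 498 bp before the start and 22 (13.8 to 33.3) at 48 bp, and ChIP had 10 (4.80 to 18.4) at 63 bp. The higher CUT&RUN peak of Mrpl51 thus had no ChIP counterpart, and the lower one had.

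At the weak end of the genes with both summits stood Mrpl34 (7 fragments in ChIP, 2.81 to 14.4, and 26 in CUT&RUN, 17.0 to 38.1), Mrps33 (10 and 11), Mrpl1 (9 and 14) and Mrpl47 (8 and 21). The ChIP peak of Mrpl34 ranked 13085 of 13166. Near Mrpl34 the higher peaks lay farther out, 2034 bp from the gene in ChIP (11 fragments) and 1946 bp in CUT&RUN (38 fragments).

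**Figure D2:**
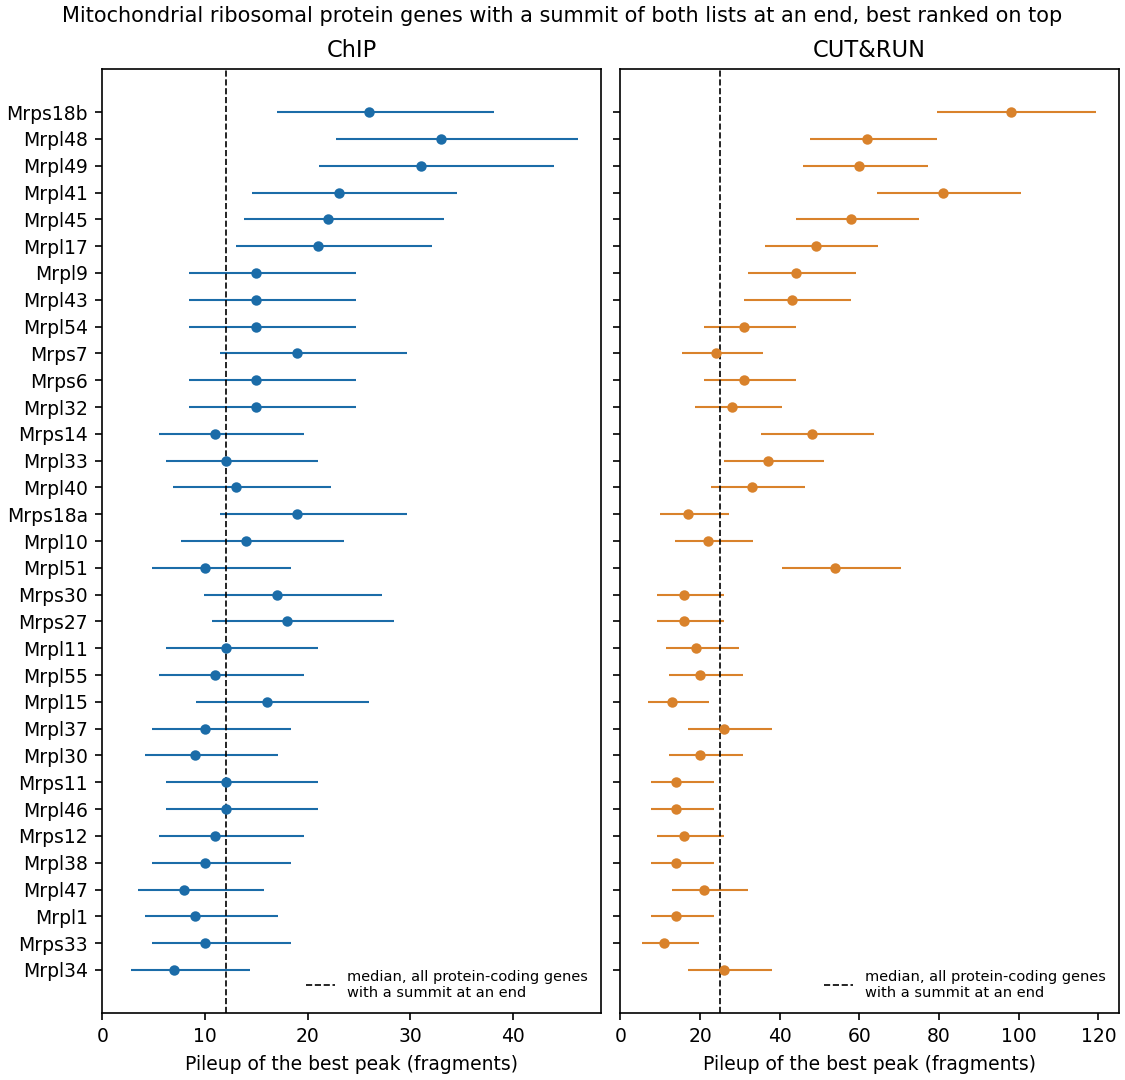
Pileup in fragments (x axes, linear) of the best ranked peak within 1 kb of an end, for the 33 genes with a summit of both lists (y axis), with 95% Poisson intervals as lines; the dashed line is the median over all protein-coding genes with such a peak, 12 in ChIP and 25 in CUT&RUN. Most ChIP intervals span that median, and the CUT&RUN values of Mrps18b and Mrpl41 (98 and 81) stand highest.

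Where the best peaks of both assays at a gene end overlapped, their summits lay close together, as they did over all genes. At 29 of the 78 genes (37.2%, against 16.2% of all protein-coding genes) the best ChIP and the best CUT&RUN peak at the same end overlapped by at least 1 bp. The median distance between their summits was 47 bp, with quartiles of 16 and 83 bp, and over all 3554 such protein-coding genes it was also 47 bp, with quartiles of 20 and 90 bp. These pairs were chosen by overlap, which limits the distance, and genes whose best peaks did not overlap are left out of the median. The closest pairs were those of Mrps30 (4 bp), Mrpl9 (5 bp), Mrpl48 (6 bp) and Mrpl11 (8 bp), and the pair of Mrps7 was the farthest apart (156 bp). At Mrpl41 and Mrpl51 the best peaks did not overlap, but a second peak of 1 list overlapped a peak of the other. At Mrpl1 and Mrps12 no peaks at the end overlapped, with summits of Mrps12 378 bp before the start in ChIP and 18 bp after it in CUT&RUN. Mrpl46 and Mrps11, which diverge from starts 42 bp apart, shared 1 peak in each list (12 and 14 fragments), so this peak was counted for both genes.

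The 14 genes with a summit at an end in ChIP alone had low peaks, with pileups of 8 to 17 and a median of 10. Mrpl13 was the highest (17, 9.90 to 27.2), followed by Mrpl44, which encodes a protein related to ribonuclease III, and Mrps17 (13 each), and Mrpl23 (12). Mrps5, Mrpl22, Mrpl20, Mrpl52, Mrps24, Mrps21, Mrpl27, Mrpl58, Mrpl53 and Mrpl57 had 8 to 11 fragments. The summits of Mrpl22 and Mrpl58 were at the far end of the gene. The 33 genes with both summits had a ChIP median of 14. The 5 genes with a summit in CUT&RUN alone were Mrpl36 (33 fragments, 22.7 to 46.3), Mrps16 (30, 20.2 to 42.8), Mrpl2 (19), Mrps9 (18) and Mrpl14 (16), with a median of 19 against 26 at the genes with both. The 31 genes with a ChIP summit at q of 1e-05 or less were 39.7% of the 78, against 15.3% of all protein-coding genes.

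Of the 26 genes with no summit at an end, Mrpl18 held the highest ChIP peak, and Mrps31, described below, the highest CUT&RUN peak. Its annotated start lies inside the span of the gene (chromosome 17, 12911345 to 12917787), and a ChIP summit with 39 fragments (27.7 to 53.3) and rank 241 lay 282 bp before it. The CUT&RUN summit lay 147 bp before it, with 84 fragments (67.0 to 104) and rank 911. These summits were 1414 and 1549 bp from the nearer end of Mrpl18 and so just outside the window. Both lay closer to an end of another gene. The ChIP pileup exceeded the 33 of Mrpl48, the highest at an end. Mrpl4 also had summits just outside the window, at 1718 bp in ChIP (10 fragments) and 1504 bp in CUT&RUN (16 fragments).

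Mrps31 had a pair of overlapping peaks 4554 and 4539 bp outside the gene, on the side of the start, with 24 fragments in ChIP (15.4 to 35.7) and 103 in CUT&RUN (84.1 to 125, rank 244). Both summits were nearer to an end of another gene. Mrps26 and Mrpl24 had weaker overlapping pairs outside the gene, and Mrps28, Mrps36 and Mrpl42 had a ChIP summit only, with 9 to 11 fragments. Mrpl35, Mrpl39, Mrps15 and Mrps34 had a CUT&RUN summit only. Inside Mrpl58, whose product is a hydrolase that frees stalled chains from the ribosome, a pair of peaks 3545 and 3567 bp from the gene end had 31 fragments in ChIP (21.1 to 44.0) and 77 in CUT&RUN (60.8 to 96.2), more than the 9 at its end.

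No summit lay within 10 kb of Mrpl3, Mrpl12, Mrpl16, Mrpl19, Mrpl21, Mrpl28, Mrpl50, Mrps2, Mrps10, Mrps18c, Mrps22, Mrps23, Mrps25 and Mrps35. Mrpl12 encodes a protein of the ribosomal stalk that is also known to bind the mitochondrial RNA polymerase. The 3 genes of the Mrps18 family thus differed. Mrps18b had peaks of both lists at both ends, with the higher ChIP peak at the start and the higher CUT&RUN peak at the other end. Mrps18a had a pair at its start (19 and 17 fragments), and Mrps18c had no summit.

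The summits gathered at the start of transcription. The RefSeq promoter table gives a start for 69 of the 78 genes (not for Mrpl4, Mrpl13, Mrpl15, Mrpl19, Mrpl38, Mrpl54, Mrps28, Mrps34 and Mrps35). A summit lay within 1 kb of an annotated start at 42 of 69 genes in ChIP (60.9%, against 24.5% of 17492 protein-coding genes with an entry) and at 34 in CUT&RUN (49.3%, against 28.8%). Counted with negative values upstream, the best such summit lay at a median of -57.5 bp in ChIP (quartiles -220.75 and 37 bp) and of -90.5 bp in CUT&RUN (quartiles -163.5 and -17.5 bp). Over all genes the medians were -49 and -69 bp. Within 100 bp of the start were 21 of the 42 ChIP summits (50%, against 47.7% over all genes) and 19 of the 34 CUT&RUN summits (55.9%, against 51.4%). The summits of Mrps9 (3 bp, CUT&RUN), Mrps18a (5 and 19 bp) and Mrpl53 (7 bp, ChIP) were among the nearest.

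**Figure D3:**
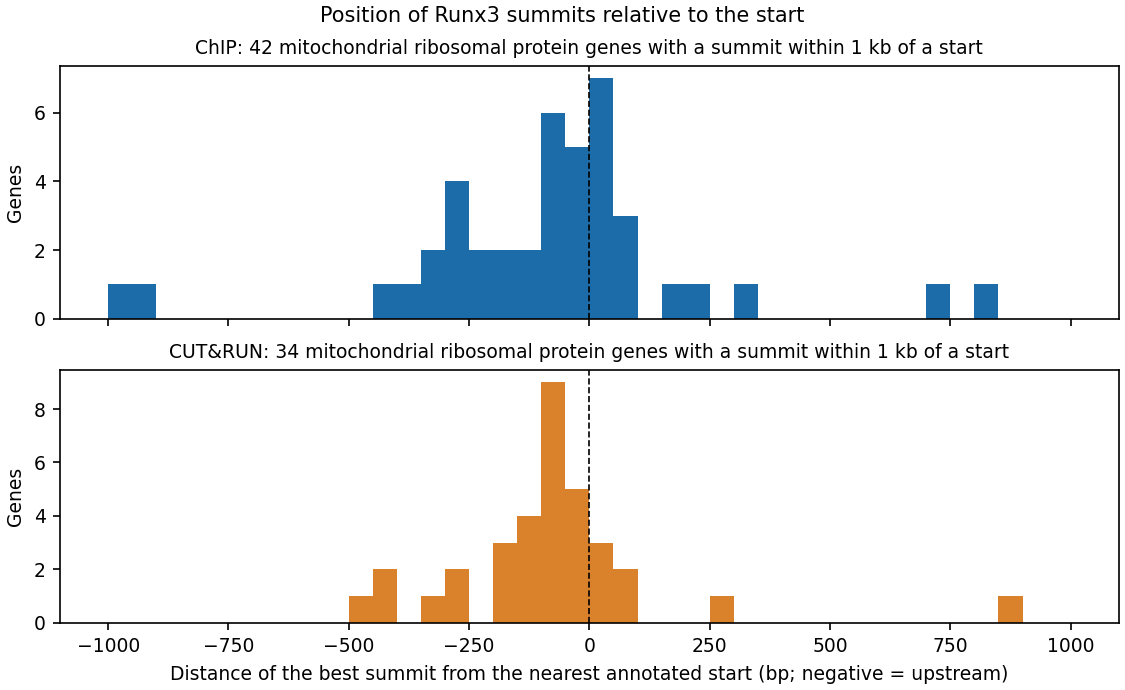
Number of genes (y axes) by the distance in bp of the best summit from the nearest annotated start (x axis, bins of 50 bp, negative values upstream, dashed line at the start), in ChIP above and CUT&RUN below. Upstream of the start lie 27 of 42 summits in ChIP and 27 of 34 in CUT&RUN, at overall medians of -57.5 and -90.5 bp.

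Mitochondrial ribosomal protein genes lay close to other genes. An end of another gene was within 1 kb of an end of 50 of the 78 (64.1%, against 34.7% of all protein-coding genes), so that a summit there cannot be assigned to 1 gene. Of 51 pairs of a ChIP peak and a gene end, 16 were nearer to the end of another gene, as were 11 of 42 in CUT&RUN. When only summits with no nearer end of another gene were counted, 35 genes had a ChIP summit (44.9%, against 18.8% of all protein-coding genes treated alike) and 30 a CUT&RUN summit (38.5%, against 22.5%). Among the 50 genes with such a neighbour, 31 had a ChIP summit (62%, against 35.8% of all protein-coding genes with one) and 27 a CUT&RUN summit (54%, against 42.9%). Among the 28 without, 16 had a ChIP summit (57.1%, against 16.1%) and 11 a CUT&RUN summit (39.3%, against 18.8%). The shares were therefore higher than those of all genes with and without a close neighbour.

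**Figure D4:**
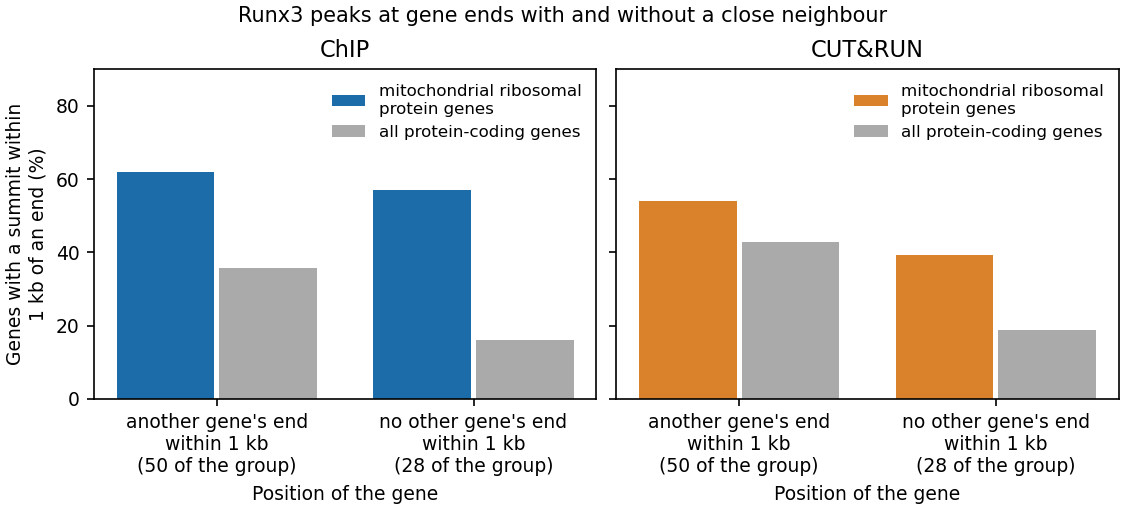
Share of genes (y axis, in %) with a summit within 1 kb of an end, in ChIP and CUT&RUN, for genes with and without an end of another gene within 1 kb; coloured bars are the mitochondrial ribosomal protein genes and grey bars all protein-coding genes. Without a close neighbour the group stands at 57.1% and 39.3%, against 16.1% and 18.8%.

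Many of the neighbours were head to head, with starts on opposite strands less than 1 kb apart and the genes read away from each other. This held for 22 of the 69 genes with an annotated start (31.9%, against 7.18% of all protein-coding genes). Of these 22, 17 had a ChIP summit at an end (77.3%, against 56.4% of all head-to-head genes) and 16 a CUT&RUN summit (72.7%, against 68%). Partners included Psma2, a proteasome subunit gene (with Mrpl32), Sars2, the mitochondrial seryl-tRNA synthetase gene (with Mrps12), Ndufb5, a gene of respiratory complex I (with Mrpl47), Ptcd2 (with Mrps27) and the histone chaperone gene Hira (with Mrpl40). Mrpl21, Mrpl50 and Mrps18c were head to head with Ighmbp2, Zfp189 and Helq and had no summit in either list, although their starts were 32, 93 and 159 bp from those of the partners. Starts this close to a partner were thus not always marked by a peak.

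The letters of ETS and YY1 sites were more frequent in these promoters than in others, and those of the RUNX core were not over all windows. In windows from 250 bases before the start to 50 bases after it, TGTGGT on either strand was found in 8 of 69 windows (11.6%), against 15.1% of 17492 protein-coding genes. Of the 16 windows that held summits of both lists, 2 had a match (12.5%), against 20% of 1831 such windows over all genes. With a summit of either list in the window the share was 6 of 35 (17.1%, against 14.7%), and without a summit 2 of 34 (5.88%, against 15.2%). The direction relative to all genes thus differed between these sets of windows, which hold few matches. With the looser TGNGGT, which contains TGTGGT, the shares were 47.8% and 43.7%, so the direction over all windows changed with the motif. For TGNGGT they were 60% and 46.6% with a summit of either list, 62.5% and 56.9% with both, and 35.3% and 42.7% with none. The 8 genes with TGTGGT were Mrpl23, Mrpl27, Mrpl33, Mrpl52, Mrps5, Mrps17, Mrps30 and Mrps33. At Mrps30 the match, marked in the sequence above, began 92 bases before the start, 18 bp from the ChIP summit and 22 bp from the CUT&RUN summit (17 and 16 fragments). At Mrpl52 the ChIP summit was 35 bp from the match, and at Mrpl23, Mrpl27, Mrps5 and Mrps33 the distances ran from 88 to 217 bp in ChIP. Mrpl33 and Mrps17, with a match but no summit in the window, had summits farther downstream. At Mrps17 the ChIP summit lay 56 bp after the start, and the match began 36 bases after the start. Over all genes, windows with a ChIP summit in the top 10% of its list had TGTGGT in 29.6% of 216 cases. Windows with a CUT&RUN summit in the top 10% of its list had it in 18.4% of 223, nearer to the 15.1% of all windows. The looser TGNGGT was found in 79.2% of these ChIP windows and 64.6% of these CUT&RUN windows, both above the 43.7% of all windows.

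CCGGAAG, the letters of a strong ETS site, was found in 24 of the 69 windows (34.8%, against 11.9% of all), and AAGATGGC, those of a YY1 site, in 12 (17.4%, against 3.21%). Both shares were also high in the 34 windows without a summit, at 32.4% and 11.8%, against 7.41% and 2.21% of all windows without one. In the 35 windows with a summit of either list they were 37.1% and 22.9%, against 25.5% and 6.24%. ETS and YY1 letters were thus more frequent than over all genes in windows with and in windows without a summit. A window without a summit does not mean a gene without a peak. Mrpl22, Mrpl33, Mrpl57, Mrpl58 and Mrps21 (ETS) and Mrpl36 and Mrps24 (YY1) had a summit at an end but outside the window. NRF1 matches were found in 3 windows (4.35%, against 1.33%), those of Mrpl9, Mrpl32 and Mrpl39. The SP/KLF letters GGGCGG (49.3%, against 46.3%) and the NFY letters CCAAT (39.1%, against 39.2%) were about as frequent as elsewhere. At Mrps18a and Mrps27, shown above, the ETS match began 26 and 48 bases before the start and the YY1 match 11 and 14 bases after it, and the summits of both lists lay between 41 and 5 bp before the start. A match is a description of the letters, and binding of these factors was not measured.

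**Figure D5:**
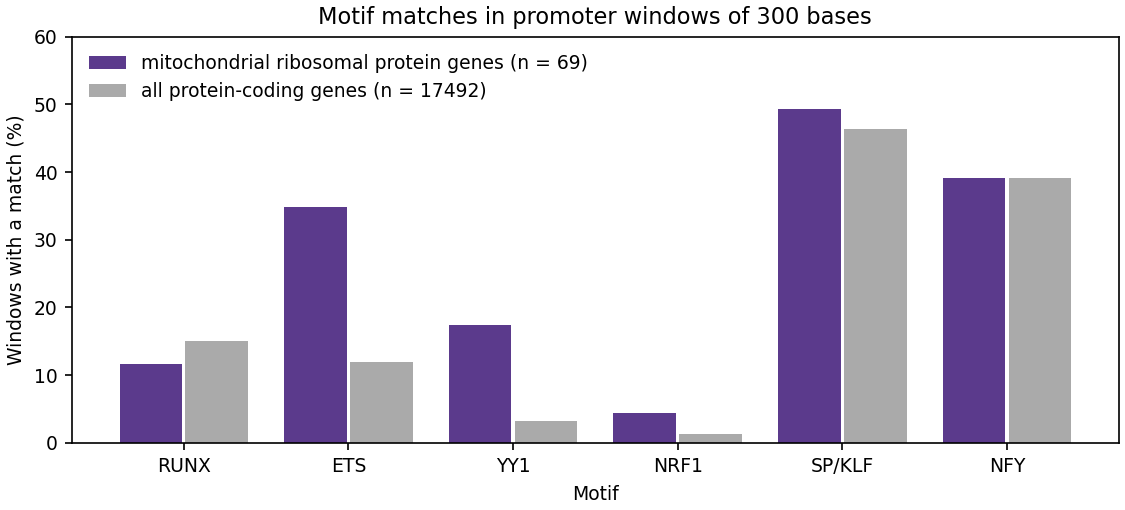
Share of promoter windows of 300 bases (y axis, in %) with at least 1 match to the named motif (x axis) on either strand, for 69 mitochondrial ribosomal protein genes and 17492 protein-coding genes. ETS (34.8% against 11.9%) and YY1 (17.4% against 3.21%) matches are more frequent in the group, and RUNX matches over all windows are not (11.6% against 15.1%).

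Of 64 other genes of mitochondrial translation, 36 had a ChIP summit at an end (56.2%, against 23% of all protein-coding genes) and 26 a CUT&RUN summit (40.6%, against 27.2%). Among factors of initiation, elongation and release the counts were 9 (75%) and 5 (41.7%) of 12, with Tufm, the elongation factor, at 19 and 30 fragments. Among genes of ribosome assembly and rRNA modification they were 13 (61.9%) and 6 (28.6%) of 21, the CUT&RUN share being near that of all genes, with Nsun4, an rRNA methyltransferase, at 12 and 79 fragments. Among mitochondrial aminoacyl-tRNA synthetases they were 6 (35.3%) and 8 (47.1%) of 17. Lars2, the leucyl-tRNA synthetase, had 193 fragments in ChIP (167 to 222) and 96 in CUT&RUN (77.8 to 117). Its ChIP value was above that of each of the 78 genes, and its CUT&RUN value was below the 98 of Mrps18b. Of 5 ribosome subunits with other symbols, Chchd1, Aurkaip1 and Ptcd3 had a ChIP summit at an end, and Dap3 and Gadd45gip1 had none.

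Among the 85 cytosolic ribosomal protein genes, ChIP had a summit at an end of 39 (45.9%) and CUT&RUN at an end of 52 (61.2%). For the 96 nuclear genes of oxidative phosphorylation the counts were 43 (44.8%) and 45 (46.9%), and for the 40 proteasome subunit genes 17 (42.5%) and 19 (47.5%). In the deposited lists the mitochondrial ribosomal protein genes were marked more often in ChIP than in CUT&RUN and each of these groups less often, but at q of 1e-05 in both the former also had fewer in ChIP (31 against 38). The share with both summits was 42.3% at mitochondrial and 42.4% at cytosolic ribosomal protein genes. No difference between these groups was tested. The 6 pseudogenes of the family, among them Mrpl48-ps and Mrpl23-ps1, had no summit of either list within 10 kb. The same held for 49.5% of all protein-coding genes, and the share over all pseudogenes was not counted.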

How the data were processed

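Peak lists of 2 libraries were used, 1 from anti-Runx3 ChIP and 1 from anti-Runx3 CUT&RUN. The submitters' processing notes name Bowtie, MACS2 and the mm10 build, with no version of Bowtie. The file headers give MACS2 2.1.1.20160309, run on paired-end fragments of each library alone. The threshold was q of 0.05 for ChIP, with the whole cell extract as control, and q of 1e-05 for CUT&RUN, with none. The deposited pileup is a coverage signal in fragments over the summit. The deposited −log10 p-value and q-value and the fold enrichment, a ratio to the expected background, are the authors' own values per peak. Peaks were used within a list only, ranked by q and then by pileup.

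Gene spans, starts and promoter sequences came from RefSeq tables of GRCm38.p6, of which 69 of the 78 genes had a promoter entry. Summits were counted within 1 kb of a gene end and in the span plus 10 kb, with Python 3.11.15, pandas 2.3.3 and scipy 1.17.1. Window, overlap and motif counts were checked on simulated data. The genes and lists were chosen with earlier results of these data known. Every gene was accounted for. Pileups were given for the 12 best and 4 weakest by mean rank percentile, and for genes with several or single-list summits. Some of these stand without an interval or as a range over several genes. Sequences were those of the 4 best and of the first Mrpl and Mrps gene without a summit at an end, plus 4 chosen after seeing the data. Markers of other cell types are not reported here.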

Additional observations from a re-analysis of the deposited data

How the results depend on the processing

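No paired analysis was possible because each assay had 1 library, and no library could be left out for the same reason. The share of genes with a summit at an end was above that of all protein-coding genes in 16 of 16 alternatives, by 1.71 to 2.68 times. For the span plus 10 kb it was above in 8 of 9, at 0.797 to 1.90 times the share of all genes. With the top 50% of each list, 25 genes kept a ChIP summit at an end (32.1%, against 12.8% of all protein-coding genes). In CUT&RUN 20 kept one (25.6%, against 14.3%). In the span plus 10 kb the counts were 31 (39.7%, against 25.6%) in ChIP and 29 (37.2%, against 28.4%) in CUT&RUN. ChIP had 31 genes with peaks that overlap the other list (39.7%, against 17.1%) and 31 at q of 1e-05 or less (39.7%, against 15.3%). The span without a margin gave 23 genes in ChIP (29.5%, against 22.4%) and 15 in CUT&RUN (19.2%, against 24.1%). There the CUT&RUN share was below that of all genes. TGNGGT was found in 33 promoter windows (47.8%, against 43.7% of all windows) in place of 8 with TGTGGT (11.6%, against 15.1%). These alternatives use fewer peaks, a smaller span or a looser motif by construction. The other alternatives (narrower and wider windows at the ends, starts only, no nearer gene, a stricter q in CUT&RUN, no high-background peaks, margins of 5 and 50 kb, stricter overlap) moved no count by over 1.5 times. No peak at an end of these genes had a background over 5 times the list median. Leaving out high-background peaks therefore could not change their counts. A ChIP peak of 7 to 12 fragments, as at many of these genes, has a wide counting interval, and the CUT&RUN list has no control.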
